A study of Mus musculus with 4 samples.

Results

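The genes that encode the subunits of the respiratory chain complexes in the nucleus were compared between the colons of mutant and control mice. They were chosen by gene name on the array (names of the forms Ndufa, Ndufb, Ndufc, Ndufs and Ndufv with a number, Sdha to Sdhd, and those beginning with Uqcr, with Cox and a digit from 4 to 8, or with Atp5) and grouped by complex. The array held 83 such genes, 36 in complex I, 4 in complex II, 8 in complex III, 17 in complex IV and 18 in complex V. Of these, 80 had a probe flagged well above background on 2 or more arrays and were among the 19325 genes tested. All 80 were well above background on all 4 arrays. The 3 that did not pass were Cox6a2, Cox7b2 and Cox8c, known as muscle or testis forms. Cox7b2 and Cox8c were above background on no array, and Cox6a2 on 1. The rule also took in Atp5c1-ps, a pseudogene, and Atp5s and Atp5sl, which are not counted as subunits of the enzyme today. Ndufa4 stands in complex I by its name but is known as a subunit of complex IV.

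Total RNA of whole colon from C57BL/6 mice was measured on 4 one-colour Agilent arrays, 2 from Junb fl/fl controls and 2 from Junb fl/fl Cd4-Cre mutants. Both groups carried the floxed Junb alleles, and both had drunk dextran sulphate sodium (DSS), an agent that injures the colon epithelium, with tissue taken on day 5. Cd4-Cre acts in cells of the T cell lineage, so the epithelium and muscle of the mutant colon keep Junb, which encodes an AP-1 transcription factor. The series was made to describe further the more severe DSS colitis of the mutants. No colon without DSS was analysed here, and the labels do not say how old the mice were.

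The respiratory chain passes electrons from NADH (complex I) and succinate (complex II) through complex III and cytochrome c to oxygen at complex IV. Protons pumped on the way drive ATP synthesis by complex V. Most subunits are encoded in the nucleus, and a small set, central to complexes I, III, IV and V, is encoded in mitochondrial DNA. Colonocytes burn butyrate in their mitochondria, and smooth muscle of the colon wall also holds many of these complexes. Some subunits of complex IV have forms made mainly in striated muscle and brown fat.

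An array gave 27935 to 29090 probes well above background of 56605. Across genes, which are not independent replicates, Pearson's r between arrays ran from 0.976 to 0.984 and was lowest for the 2 controls. Xist and the Y-linked Eif2s3y separated the replicate 1 arrays from the replicate 2 arrays in both genotypes. Xist read -0.55 (control) and -0.77 (mutant) in replicate 1 but -6.13 and -6.43 in replicate 2, so that replicate 1 was a female and replicate 2 a male colon. Differences within each pair are therefore given beside the pooled ones. Junb itself read 4.23 and 4.39 in the controls against 4.44 and 4.47 in the mutants, which is no check of a deletion limited to T cells. Signals are log2 intensities relative to the 75th percentile of each array, and every difference is mutant minus control on that log2 scale with its standard error (n = 2 and 2 arrays).

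Nearly all subunit genes had a slightly higher signal in the mutant colon. The difference was above 0 for 76 of the 80 genes, against a background of 53.4% of all genes tested, with a median of 0.14 and quartiles of 0.09 and 0.18. It lay between 0 and 0.25 for 70 of the 80. Over all genes tested the median was 0.02, with quartiles of -0.16 and 0.18. No subunit gene passed an adjusted p of 0.05 by limma (smallest adjusted p = 0.467), where 0% of all genes were called. At an unadjusted p under 0.05, 3 were higher and 0 lower, and the background was 5.31% of all genes higher and 3.98% lower (9.29% in either direction). With the replicate number as a block, 14 were higher and 2 lower at that level, beside 1945 higher and 1437 lower of all 19325 genes. With the block limma called 46 of all genes (0.238%) at the adjusted threshold, none of them a subunit gene. The groups did not overlap, with both mutants above both controls, for 47 of the 80, against 25.7% of all genes. Both mutants lay below both controls for 2 of the 80, against 17.6% of all genes.

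The gap between the controls was as large as the difference between genotypes. Control 2 exceeded control 1 by a median of 0.14 over the subunit genes, with 72 of 80 higher, and mutant 2 exceeded mutant 1 by 0.06, with 65 of 80 higher. The median deviation from each gene's own mean was -0.14 on control 1, -0.01 on control 2, 0.05 on mutant 1 and 0.10 on mutant 2. Mutant 1 lay only 0.05 above control 2, with 50 of 80 genes higher. Within the female pair the median difference was 0.18 and within the male pair 0.11, and 70 of the 80 genes were higher in both pairs. Without control 1 the median of the 80 was 0.08, and without control 2 it was 0.20.

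**Figure D1:**
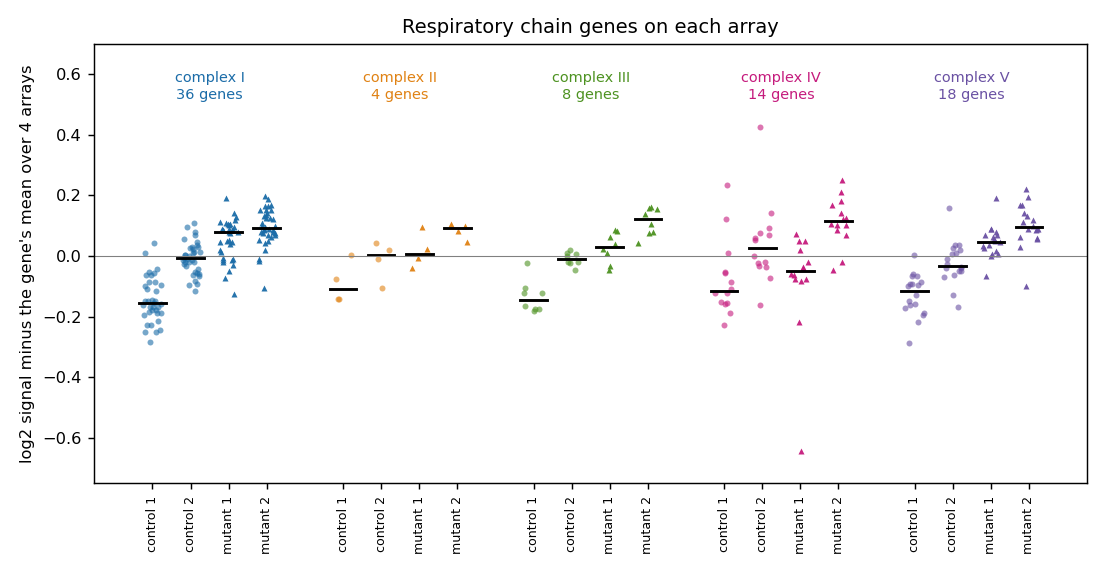
Log2 signal of each of the 80 genes minus its own mean over the 4 arrays (vertical axis), by complex and array; circles are control genes' values, triangles mutant ones, and black bars the median of the complex on that array. Control 1 is the lowest array in complexes I to V, and mutant 1 lies below control 2 in complex IV alone.

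Most of these genes are read by some of the brightest probes on the array, and bright probes as a class had higher signals in the mutants. The brightness of a probe is not a measure of how abundant its transcript is. Of the 80, 66 lay among the brightest 10% of the genes tested (1933 genes). That bright class had a median difference of 0.14, with quartiles of 0.02 and 0.25 and 77.6% of genes above 0. The 66 subunit genes in it had a median of 0.14, and 65 of them were above 0. Both mutants exceeded both controls for 41 of the 66, and for 49.4% of the class; both lay below both controls for 0 of the 66 and for 8.07% of the class. Over 10 classes of equal size by signal level, the median difference of all genes went from -0.08 in the dimmest to 0.14 in the brightest. The bright class also separated the controls, by a median of 0.14. Its median deviations were -0.14 and -0.01 on the controls and 0.03 and 0.11 on the mutants, close to those of the subunit genes on the same arrays.

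The direction depended on the scaling. With quantile normalization, which gives every array the same distribution, the median of the 80 genes was -0.06 and 26 of 80 were above 0. Relative to the bright class, an alternative chosen after seeing the data, the median was -0.002. With each array scaled to its median probe it was 0.22, while the median of all genes moved to 0.10. The data thus give no direction for the family that holds across these scalings.

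**Figure D2:**
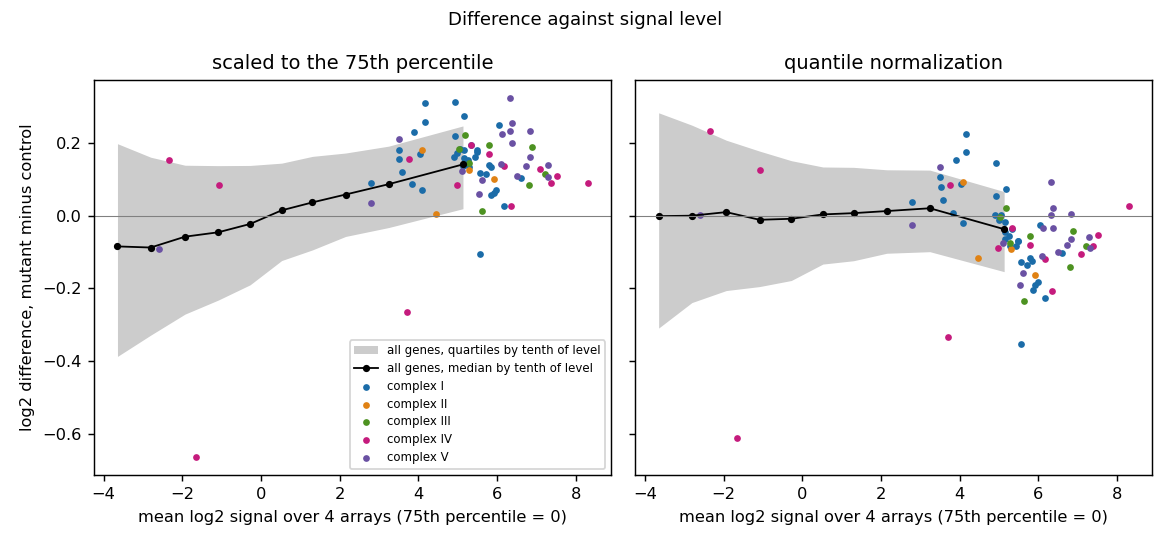
Log2 difference, mutant minus control (vertical axis), against mean log2 signal over 4 arrays (horizontal axis) for the 80 genes coloured by complex; the black line and grey band are the median and quartiles of all 19325 genes in 10 classes by signal level. Scaled to the 75th percentile (left), the line climbs from -0.08 to 0.14 and the subunit genes lie about its upper end; after quantile normalization (right), most of them lie below 0.

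Complex I, the NADH dehydrogenase, had a median difference of 0.16 over 36 genes, with 35 above 0. Both mutants exceeded both controls for 22, against 25.7% of all genes and 49.4% of the bright class. In complex I the female pair gave 0.20 and the male pair 0.10. Its 7 nuclear core subunits, which carry the flavin and the iron-sulphur clusters or line the quinone site, had a median of 0.18, from 0.07 in Ndufs1 to 0.31 in Ndufs8. The 29 other genes, mostly accessory subunits, had a median of 0.14. Ndufs8, an iron-sulphur subunit on the path to ubiquinone, had signals of 4.67 and 4.86 in the controls against 5.03 and 5.12 in the mutants. Both mutants were above both controls, and the difference was 0.31 ± 0.12 (1.24-fold, limma adjusted p = 0.523). Ndufa10, an accessory subunit of the membrane arm, had 3.94 and 4.08 in the controls against 4.31 and 4.33 in the mutants, again without overlap. The difference was 0.31 ± 0.11 (1.24-fold, limma adjusted p = 0.50). Neither difference passed the adjusted test.

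Ndufa10 and Ndufs8 are printed by the probes that measured them, since another probe of Ndufa10 allows a second reading of the same transcript. The probes lie on mm9 at chr1:94348635-94348694, minus strand (Ndufa10, represented here), chr1:94361039-94363996, minus strand (Ndufa10, other probe, 60 bases spread over 2958 bases of the genome), and chr19:3908949-3909008, minus strand (Ndufs8). An annotation of exons on mm9 was not used here.
Ndufa10 probe: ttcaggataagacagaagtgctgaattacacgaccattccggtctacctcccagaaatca
Ndufa10 other probe: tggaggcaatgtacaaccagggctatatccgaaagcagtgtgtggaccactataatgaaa
Ndufs8 probe: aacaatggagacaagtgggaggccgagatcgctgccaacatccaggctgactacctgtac
The other Ndufa10 probe read 2.58 and 2.78 in the controls against 2.87 and 2.998 in the mutants, a difference of 0.25. A further probe of Ndufa10, matched to an Ensembl transcript, was dimmer, though well above background on all 4 arrays, and differed by -0.13.

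At the other end of complex I stood Ndufa1, a small membrane subunit encoded on the X chromosome. Its signals were 5.58 and 5.66 in the controls against 5.44 and 5.59 in the mutants, which overlap, with a difference of -0.10 ± 0.11. It was the only complex I gene below 0. Ndufa6, an accessory subunit of the matrix arm, overlapped as well, at 6.07 and 6.24 against 6.10 and 6.27, with a difference of 0.03 ± 0.12. With quantile normalization Ndufa1 differed by -0.35 and Ndufa6 by -0.23, and both reached an unadjusted p under 0.05 (adjusted p = 0.430 and 0.460). Ndufb8 differed by 0.11 and Ndufv2 by 0.17, and a dimmer second probe of each, well above background on 4 and 3 arrays, went the other way, at -0.10 and -0.06. Ndufa4 had a difference of 0.12 ± 0.11.

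Complex II, succinate dehydrogenase, is also an enzyme of the tricarboxylic acid cycle and has no subunit encoded in mitochondrial DNA. Its 4 genes, all in the bright class, had a median difference of 0.11. Both mutants exceeded both controls for 2 of them (25.7% of all genes, 49.4% of the bright class). Sdhc, a membrane anchor, had 4.01 and 3.98 in the controls against 4.18 and 4.17 in the mutants, without overlap, a difference of 0.18 ± 0.10. The other anchor, Sdhd, differed by 0.12 ± 0.11, and the iron-sulphur subunit Sdhb by 0.10 ± 0.12. Sdha, the flavoprotein that oxidises succinate, read 4.46 and 4.45 against 4.42 and 4.50. That was a difference of 0.01 ± 0.10, and 3 dimmer probes of Sdha gave -0.06, 0.00 and 0.18. None of the 4 genes passed the test at an unadjusted p under 0.05.

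Complex III, which passes electrons from ubiquinol to cytochrome c, had a median difference of 0.16 over 8 genes, all above 0. For 5 both mutants exceeded both controls (25.7% of all genes, 49.4% of the bright class). Uqcrc1, a large matrix-side core protein, had 5.001 and 5.13 in the controls against 5.26 and 5.31 in the mutants, and differed by 0.22 ± 0.11 (limma adjusted p = 0.586). Uqcr11, a small membrane subunit, had 5.62 and 5.78 against 5.83 and 5.95, a difference of 0.19 ± 0.11. Uqcrfs1, the Rieske iron-sulphur protein that hands electrons to cytochrome c1, differed by 0.18 ± 0.12. The lowest were Uqcr10, at 0.08 ± 0.11, and Uqcrb, which helps to form the quinone site, at 0.01 ± 0.10. Uqcrb read 5.61 and 5.64 in the controls against 5.60 and 5.67 in the mutants. A dim probe of Uqcrb differed by -0.51 and a brighter one by 0.08.

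Complex V, the ATP synthase, had a median difference of 0.14 over 18 genes. For 17 the difference was above 0, and for 14 both mutants exceeded both controls (25.7% of all genes, 49.4% of the bright class). The female and male pairs gave 0.17 and 0.13. The 5 genes of the catalytic head had a median of 0.12 and the 4 of the peripheral stalk, which holds the head still, 0.12. The 3 genes of the membrane part, Atp5j2, Atp5k and Atp5l, had 0.22. Among the head subunits, Atp5a1 differed by 0.14 ± 0.10 and Atp5b, the catalytic subunit, by 0.11 ± 0.11, both without overlap of the groups. The rule's non-subunits stood at 0.21 ± 0.12 for Atp5c1-ps, -0.09 ± 0.22 for Atp5s and 0.04 ± 0.11 for Atp5sl. The 77 genes left without these 3 had a median of 0.14.

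The c ring, which turns as protons pass, is made of 1 mature protein encoded by Atp5g1, Atp5g2 and Atp5g3. Atp5g1 had 6.13 and 6.19 in the controls against 6.51 and 6.45 in the mutants, the largest upward difference among the 80 genes, at 0.32 ± 0.10 (1.25-fold, limma adjusted p = 0.467). Another Atp5g1 probe, at chr11:95934924-95934983 on the minus strand of mm9, is printed because it reads the same gene at another place.
Atp5g1 other probe: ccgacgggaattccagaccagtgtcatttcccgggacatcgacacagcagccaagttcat
It gave 4.47 and 4.56 against 4.84 and 4.72, also without overlap, a difference of 0.27, and a dimmer probe gave 0.09. Atp5g2 had 6.09 and 6.41 in the controls against 6.41 and 6.60 in the mutants, which overlap, with a difference of 0.25 ± 0.15. Atp5g3 had 6.74 and 6.78 against 6.91 and 6.93, without overlap, and differed by 0.16 ± 0.10. A dim second probe of Atp5g3 gave -0.03. The ratio of Atp5g1 to Atp5g3 on the same array was higher in the mutants by 0.16 (0.22 in the female and 0.11 in the male pair), and that of Atp5g1 to Atp5g2 by 0.07. By an exact permutation test over the arrays, two-sided, these had p = 0.333 and p = 0.667. With 2 arrays a group the smallest p possible is 0.333, so the design cannot show a difference by this test.

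**Figure D3:**
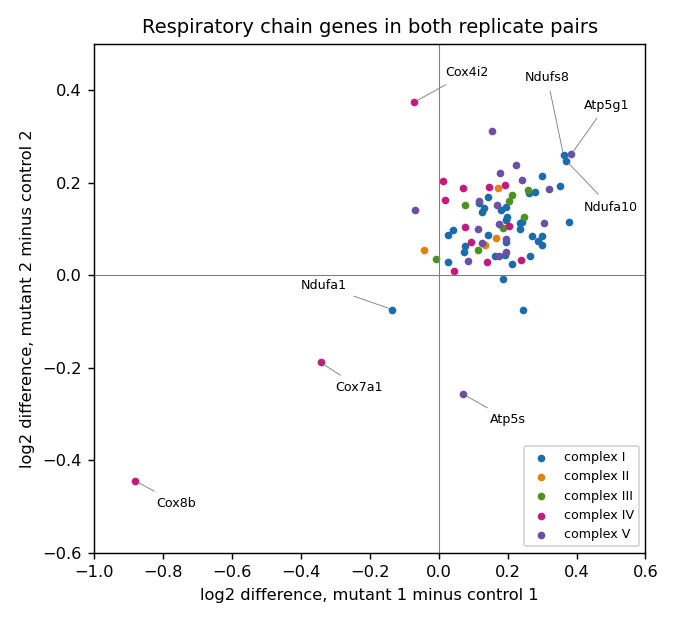
Log2 difference in the male pair, mutant 2 minus control 2 (vertical axis), against that in the female pair, mutant 1 minus control 1 (horizontal axis), for the 80 genes coloured by complex. Most points crowd above 0 on both axes, 70 of 80 (7017 of all 19325 genes, 1266 of the 1933 in the bright class). Cox8b, Cox7a1 and Ndufa1 are below 0 on both.

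Complex IV, cytochrome c oxidase, had a median difference of 0.10 over 14 genes, with 12 above 0. For 4 both mutants exceeded both controls, against 25.7% of all genes and 49.4% of the bright class. For 2 both mutants lay below both controls, against 17.6% of all genes and 8.07% of the bright class. Complex IV gave 0.07 in the female and 0.10 in the male pair, and mutant 1 lay below control 2 for 9 of the 14 genes. Without mutant 2 the median of the 14 was 0.01. The subunits found in most tissues lay slightly above 0 under the 75th percentile scaling. Cox6a1 differed by 0.09 ± 0.11, Cox5a by 0.09 ± 0.10, Cox6b1 by 0.16 ± 0.11, Cox7c by 0.08 ± 0.13 and Cox6c by 0.03 ± 0.13. With quantile normalization Cox5a, Cox7c and Cox6c lay below 0, at -0.084, -0.09 and -0.21. Cox7b had 5.21 and 5.26 in the controls against 5.40 and 5.45 in the mutants, without overlap, a difference of 0.19 ± 0.10. Cox7a2l had 5.57 and 5.85 against 5.71 and 6.05, with overlap, a difference of 0.17 ± 0.17.

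Cox7a1 and Cox8b, the forms of subunits VIIa and VIII known from heart, skeletal muscle and brown fat, lay lower in the mutants. Cox7a1 had 3.82 and 3.84 in the controls against 3.48 and 3.65 in the mutants. The groups did not overlap, and the difference was -0.27 ± 0.11 (1.202-fold lower, limma adjusted p = 0.556), with -0.34 in the female and -0.19 in the male pair. Cox8b, a dim gene here, had -1.43 and -1.23 in the controls against -2.31 and -1.68 in the mutants. Both mutants were below both controls, with a difference of -0.66 ± 0.26 (1.58-fold lower, limma adjusted p = 0.542), and -0.88 and -0.44 in the pairs. Neither passed the adjusted test. They were the 2 genes of the 80 in which both mutants lay below both controls. Both stayed below 0 with quantile normalization, at -0.33 for Cox7a1 and -0.61 for Cox8b. With normexp background correction they were -0.28 and -0.32. The Cox8b difference was -0.35 without mutant 1 and -0.98 without mutant 2, and that of Cox7a1 -0.18 and -0.35.

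Their counterparts found in most tissues lay above 0 under the 75th percentile scaling and below 0 with quantile normalization. Cox7a2 had 5.98 and 6.22 in the controls against 6.22 and 6.25 in the mutants, a difference of 0.14 ± 0.12, and Cox8a had 7.45 and 7.51 against 7.46 and 7.71, a difference of 0.11 ± 0.13. Both pairs of groups overlapped. With quantile normalization Cox7a2 differed by -0.12 and Cox8a by -0.05. A ratio of 2 probes on the same array does not depend on scaling by a constant. The Cox7a1 to Cox7a2 ratio was lower in the mutants, with a change of -0.40 (-0.58 and -0.22 in the female and male pairs), and the Cox8b to Cox8a ratio changed by -0.77 (-0.89 and -0.65). Quantile normalization is no such constant, and with it the changes were -0.22 and -0.56. With normexp they were -0.37 and -0.41. Both had p = 0.333 by the exact permutation test, the smallest it can give, and an adjusted p of 0.667 over the 6 ratios compared. Under the 75th percentile scaling the other ratios moved less. Cox4i2, the form of subunit IV linked to low oxygen, to Cox4i1 changed by 0.02 (-0.14 and 0.19 in the pairs). With quantile normalization that ratio changed by 0.34, more than the -0.22 of Cox7a1 to Cox7a2. Cox6b2, known from testis, to Cox6b1 changed by -0.07.

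**Figure D4:**
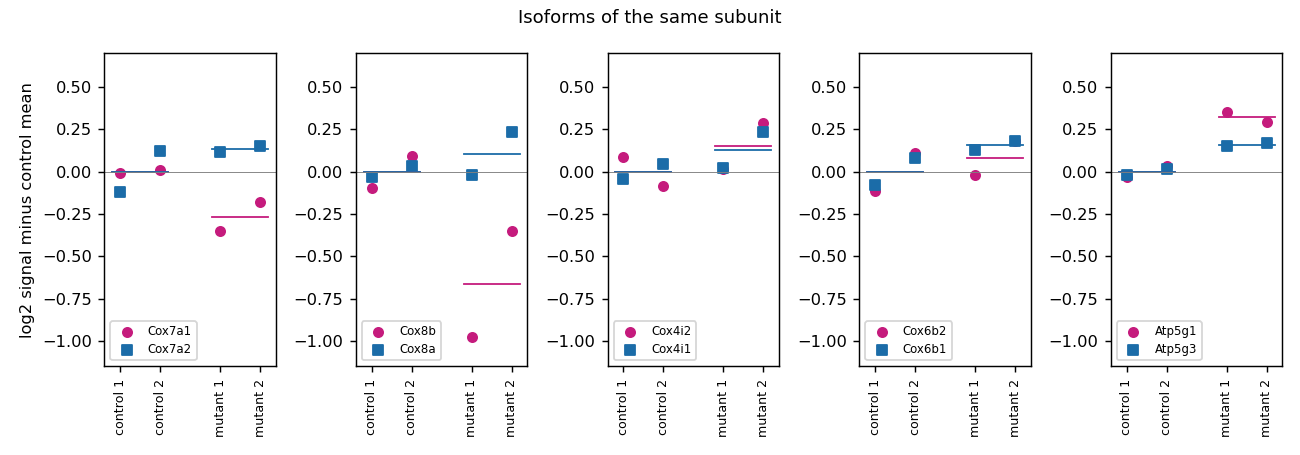
Log2 signal minus the gene's control mean (vertical axis) on each array for 5 pairs of isoforms; points are arrays and short lines group means (n = 2). Cox7a1 and Cox8b lie below their control means on both mutant arrays, while Cox7a2 lies above its own on both under this scaling to the 75th percentile (with quantile normalization its group difference is -0.12).

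The stretch of 250 bases upstream of the RefSeq start (GRCm38.p6) is shown for these 4 genes, since their ratios changed the most of the 6. The regions are chr7:30183921-30184170, plus strand, for Cox7a1, chr9:79759854-79760103, minus strand, for Cox7a2, chr7:140900447-140900696, minus strand, for Cox8b and chr19:7217617-7217866, minus strand, for Cox8a. Capitals mark matches, on either strand, to TTCCGG (the core bound by ETS factors such as GABP), TATAAA or CCAAT.
Cox7a1 upstream: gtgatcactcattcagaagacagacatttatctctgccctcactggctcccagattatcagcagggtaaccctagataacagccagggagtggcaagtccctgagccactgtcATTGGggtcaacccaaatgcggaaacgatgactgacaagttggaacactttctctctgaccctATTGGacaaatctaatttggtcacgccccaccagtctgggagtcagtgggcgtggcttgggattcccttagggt
Cox7a2 upstream: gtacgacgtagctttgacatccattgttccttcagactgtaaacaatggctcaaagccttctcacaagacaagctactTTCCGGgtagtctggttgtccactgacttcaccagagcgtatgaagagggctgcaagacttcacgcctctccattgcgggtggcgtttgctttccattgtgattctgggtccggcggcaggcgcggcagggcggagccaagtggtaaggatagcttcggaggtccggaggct
Cox8b upstream: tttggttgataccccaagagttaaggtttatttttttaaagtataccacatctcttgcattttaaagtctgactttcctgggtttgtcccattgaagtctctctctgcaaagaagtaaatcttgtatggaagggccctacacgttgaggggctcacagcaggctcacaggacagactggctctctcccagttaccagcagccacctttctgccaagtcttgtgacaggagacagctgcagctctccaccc
Cox8a upstream: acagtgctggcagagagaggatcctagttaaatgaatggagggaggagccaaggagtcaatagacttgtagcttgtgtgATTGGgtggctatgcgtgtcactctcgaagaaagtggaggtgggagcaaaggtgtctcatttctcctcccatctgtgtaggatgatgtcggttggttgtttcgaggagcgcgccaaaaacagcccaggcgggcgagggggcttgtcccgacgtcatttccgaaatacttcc
Cox7a2 held TTCCGG, Cox7a1 and Cox8a held CCAAT, and the Cox8b window held none of the 3 motifs. Across the family, 68 genes had 74 listed promoters. TTCCGG was found in 28.4% of these and in 12% of all 32851 promoters of the same length. CCAAT was in 43.2% and 33.8%, and TATAAA in 9.46% and 12.4%. A match is a description of letters and not a bound site.

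The Cox7a1 probe lies on the plus strand of mm9 at chr7:30970337-30970948, its 60 bases spread over 612 bases of the genome, and is printed because the gene's direction rests on it alone.
Cox7a1 probe: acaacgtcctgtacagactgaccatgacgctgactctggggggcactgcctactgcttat
The probe was the sole Cox7a1 probe on the array, and Cox8b likewise had 1.

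Muscle and fat markers also lay lower in the mutants. All 10 smooth muscle markers were lower, with a median difference of -0.59, and 9 had an unadjusted p under 0.05, against 3.98% of all genes, while none passed the adjusted test (smallest limma adjusted p = 0.418). Their summed linear level relative to the 75th percentile was 414.9 to 452.1 in the controls and 307.7 to 317.2 in the mutants. Of 10 skeletal and cardiac muscle markers 6 were tested, and 5 of the 6 were lower, with a summed level of 9.02 to 9.68 against 6.05 to 6.13. Their defining genes Myh1, Myh4 and Mb were well above background on no array. Actc1, the brightest of the 6, made up most of their summed level. The troponin genes Tnni2 and Tnnt3 (the latter well above background on 2 arrays) differed by 0.11 ± 0.39 and -0.08 ± 0.41. Of 10 adipocyte markers 8 were tested and 7 were lower, with a summed level of 21.4 to 23.2 against 9.62 to 12.5. Ucp1, which defines brown fat, was well above background on no array. Adipoq, a fat cell hormone, differed by -2.24 ± 0.49 (limma adjusted p = 0.418) but was well above background on only 3 arrays. It read -0.74 and -1.80 in the controls against -3.98 and -3.04 in the mutants. The deviations of Cox8b were 0.24 and 0.43 in the controls against -0.64 and -0.02 in the mutants when set against its mean. In the same order the median deviations were 0.20, 0.35, -0.30 and -0.28 for smooth muscle, 0.27, 0.33, -0.33 and -0.38 for skeletal and cardiac muscle, and 0.09, 0.50, -0.63 and -0.07 for the adipocyte list. All 3 lists were above 0 on both controls and below 0 on both mutants. The part of these tissues in the values of Cox7a1 and Cox8b was not tested. In whole colon, fewer cells of a type and less RNA per cell cannot be told apart.

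Epithelial and other lists are given beside the subunit genes. Of 9 colonocyte markers 8 were lower, with a median of -0.23 and a summed level of 733.1 to 843.5 in the controls and 600.4 to 788.8 in the mutants, which overlap. Of 7 general epithelial markers 5 were higher, with a median of 0.09 and a summed level of 787.9 to 789.8 against 828.0 to 859.8. All 10 proliferation genes were higher, with a median of 0.85, and 8 had an unadjusted p under 0.05, against 5.31% of all genes, with none past the adjusted test (smallest limma adjusted p = 0.418; summed level 35.8 to 37.2 against 51.4 to 69.8). The 10 leukocyte markers had a median of -0.02, with 3 higher (summed level 63.0 to 68.2 against 68.9 to 95.4). That median spans wide differences. The neutrophil genes S100a8 and S100a9 stood at 2.24 ± 0.78 and 2.24 ± 0.88 (limma adjusted p = 0.506 and 0.537). The T cell gene Cd8a stood at -1.81 ± 0.31 (limma adjusted p = 0.418) but was well above background on only 2 arrays. Its mutant values, -4.40 and -4.70, lay below the lowest signals well above background on those arrays (-4.12 and -4.25). Other genes of these cells differed less, with Csf3r of neutrophils at -0.015 ± 0.13, and the T cell genes Cd4 at -0.03 ± 0.14 and Cd3e at -0.32 ± 0.16. The 3 red blood cell genes tested had a median of -1.24 (21.6 to 38.4 against 8.24 to 17.8). Their part in the subunit values was not tested.

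**Figure D5:**
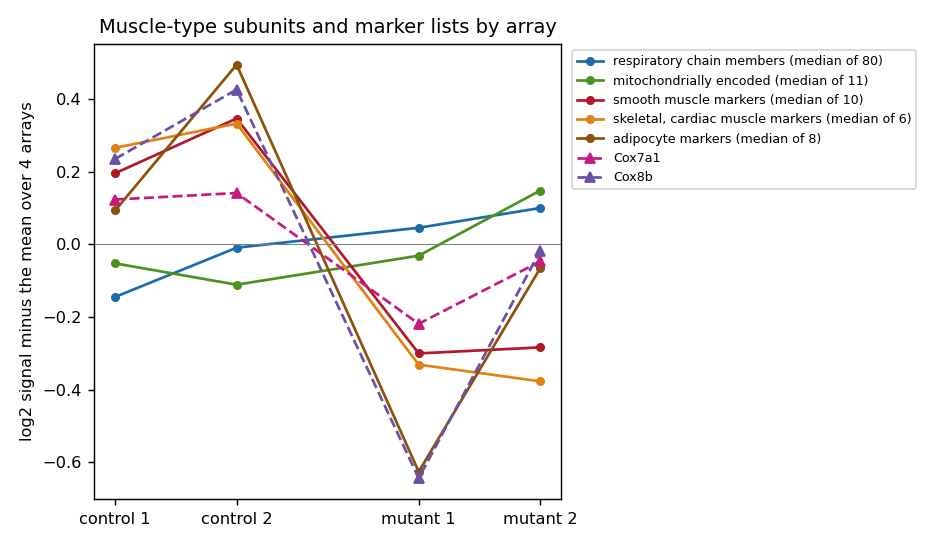
Log2 signal minus the mean over 4 arrays (vertical axis) for Cox7a1 and Cox8b (dashed) and, as medians over genes, for the respiratory chain genes and marker lists (solid), on each array; lines join arrays for reading only. Cox7a1 and Cox8b lie above 0 in both controls and below 0 in both mutants, as do the smooth muscle, striated muscle and adipocyte lists.

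The subunits encoded in mitochondrial DNA, which join the nuclear ones in the same complexes, were measured for 11 of 13 genes. Their median difference was 0.12, with 8 above 0 (53.4% of all genes, 77.6% of the bright class). For 7 both mutants exceeded both controls (25.7% of all genes, 49.4% of the bright class). The files place the probe named ND3 on chromosome 1 of the nuclear genome, and without it the median of the other 10 was 0.11. Their order over the arrays differed from that of the nuclear genes. Control 2 exceeded control 1 for 3 of the 11, with a median of -0.02, against 72 of 80 nuclear genes, with a median of 0.14, and this contrast was not tested. The female pair gave 0.01 and the male pair 0.25. ND6, a complex I subunit, had -0.64 and -0.37 in the controls against -0.00 and 0.06 in the mutants, without overlap, a difference of 0.53 ± 0.15 (limma adjusted p = 0.437). ND5 differed by -0.07 ± 0.18 and COX1, the catalytic subunit of complex IV, by 0.12 ± 0.12.

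Genes that work with the chain had medians of 0.12 to 0.14 in 3 lists and 0.23 in the list of import and channel genes. For 10 electron carriers and subunits outside the naming rule the median was 0.14, with 8 above 0, and Cycs, cytochrome c, differed by 0.28 ± 0.11 (limma adjusted p = 0.533). For 45 assembly factors it was 0.12, with 36 above 0 and none at an unadjusted p under 0.05. For 13 tricarboxylic acid cycle genes it was 0.13, with 9 above 0 and again none. For 12 genes of mitochondrial import and channels it was 0.23 (0.35 in the female and 0.11 in the male pair), with 11 above 0. At an unadjusted p under 0.05, 2 of them were higher, against 5.31% of all genes. These were Tomm40, the pore of the outer membrane translocase, at 0.40 ± 0.13 (adjusted p = 0.489) and Phb, a prohibitin, at 0.31 ± 0.12 (adjusted p = 0.529), by limma.

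Regulators of these genes had a median difference of 0.11 over 15 tested, with 13 above 0. Ssbp1, which binds single-stranded mitochondrial DNA, had 1.75 and 1.79 in the controls against 2.08 and 2.08 in the mutants, without overlap, a difference of 0.31 ± 0.10 (limma adjusted p = 0.491). Pprc1, a coactivator, differed by 0.38 ± 0.16, the nuclear receptor Esrra by 0.22 ± 0.10 and Nrf1 by 0.15 ± 0.12. Ppargc1a, the coactivator best known for driving mitochondrial gene expression, read 1.196 and 0.15 in the controls against 0.27 and 0.07 in the mutants. The groups overlapped and control 1 stood apart, with a difference of -0.50 ± 0.35, or -0.93 in the female and -0.08 in the male pair. None of these genes passed the adjusted test.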

How the data were processed

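Total RNA of whole colon was measured on 4 one-colour arrays. The authors deposited the scanner's linear intensity for each spot, background-corrected by the image software (Agilent Feature Extraction 11.5.1.1 in the file headers), with no scaling between arrays recorded there. Other deposited columns, per the file headers, are yes or no flags for outliers, saturation and signal above background. Groups and replicate numbers came from titles and genotype labels.

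Each array's 75th percentile over non-control spots (330, 328.6, 310.9 and 268.5 as intensity) was subtracted on the log2 scale. Outlier spots were dropped, as were 11 probes with no clean spot. A probe had to be well above background in 2 or more arrays, the brightest such probe represented its gene, and 19325 genes were tested with limma 3.58.1 in R 4.3.3 (lmFit, eBayes with intensity trend, two-sided, no block, Benjamini-Hochberg adjustment over all genes). The fit was tested on simulated data. P-values measure the spread between 2 arrays a group, moderated by other genes. Each group held a female and a male colon, so without the block this spread includes any difference between the sexes. The number of arrays limits the precision.

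The members and lists were chosen with earlier results of these data known. Named were, per complex, the 2 highest and 2 lowest members, those with an unadjusted p under 0.05, tissue-restricted isoforms, members whose probes disagree in sign (6 of 28 with several passing probes) and, of each other list, the 3 with the smallest p. Other members are named for their role, and other list genes were chosen after their values were seen. Lists are described by counts and medians and were not tested. Symbols follow the array's annotation. Probe coordinates are on mm9 as in the files, and upstream sequences are from RefSeq (GRCm38.p6). Alternatives were normexp (offset 50), quantile normalization, scaling to the array median, other filters, the mean of probes, no trend, a replicate block and leaving out each array.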

Additional observations from a re-analysis of the deposited data

Results flagged for a closer look

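Cox6a2, the striated muscle form of subunit VIa of complex IV, was kept out of the comparison because it was well above background on 1 array. That array was mutant replicate 2, with a log2 signal of -3.80. It read -4.79 and -4.60 in the controls and -4.23 on mutant replicate 1, all not well above background. A signal above background in data outside the comparison drew attention to it.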

How the results depend on the processing

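No subunit gene passed the adjusted threshold in any fit run, those without 1 array included (smallest adjusted p from 0.164 with the replicate block to 0.995 without mutant 1). The direction of the family's median followed the scaling. With quantile normalization it was -0.057 for all subunit genes and -0.031, -0.10, -0.067, -0.082 and -0.046 for complexes I to V, with 26 genes above 0. Relative to the brightest 10% of genes, an alternative chosen after seeing the data, it was -0.002 for all and 0.016, -0.029, 0.022, -0.041 and 0 for complexes I to V. Scaled to the array median it was 0.22 for all and 0.24, 0.19, 0.24, 0.18 and 0.22 for complexes I to V. Without 1 array it ran from 0.081 to 0.20 for all and, for complexes I to V in order, from 0.085 to 0.23, 0.028 to 0.18, 0.093 to 0.23, 0.012 to 0.18 and 0.095 to 0.18. Subunit genes higher at an unadjusted p under 0.05 numbered 3; this was 1 with normexp, quantile normalization or the mean of probes, 0 with array-median scaling or no trend, and 0 to 6 without 1 array (6 without control 2). Lower ones numbered 0; this was 6 with quantile normalization, 1 with normexp, no filter, a filter on all 4 arrays or the mean of probes, and 0 to 1 without 1 array. Over all genes, 411 were lower with array-median scaling and 872 with quantile normalization, against 770 of 19325. Without a filter 2317 of 37066 were lower. Without 1 array, 505 to 1217 were higher and 359 to 950 lower.

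The replicate numbers share only a number in the labels. Deviations of same-numbered arrays correlated at r = 0.239 across genes, and the numbers separate female from male. With the replicate block, limma called 46 genes at the adjusted threshold (0.238%) against 0 without it, none of them a subunit gene, and 1945 genes were higher and 1437 lower at an unadjusted p under 0.05. Of the subunit genes 14 were then higher and 2, Cox7a1 and Cox8b, lower.

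Named genes changed sign as follows, and the cause was not tested. With quantile normalization these were Ndufa6 -0.23, Sdhd -0.092, Sdha -0.12, Sdhb -0.16, Uqcr11 -0.057, Uqcrb -0.23, Uqcr10 -0.14, Cox7b -0.035, Cox7a2l -0.081, Atp5s 0.0004, Atp5sl -0.025, Cox4i1 -0.11, Cox7a2 -0.12, Cox8a -0.052, Atp5g3 -0.064, Ndufb8 -0.13, Ndufv2 -0.012, ND3 -0.081, Usmg5 -0.011, 2010107E04Rik -0.086, Krt20 -0.0092, Krt8 -0.0197, Ndufs1 -0.022, Uqcrfs1 -0.0044, Cox5a -0.084, Cox6c -0.21, Cox7c -0.0897, Atp5a1 -0.059, Atp5b -0.088, Atp5j2 -0.034, Atp5k -0.11 and COX1 -0.0066. Relative to the brightest 10% they were Ndufa6 -0.11, Sdhd -0.016, Sdha -0.13, Sdhb -0.041, Uqcrb -0.13, Uqcr10 -0.056, Atp5sl -0.10, Cox4i1 -0.012, Cox6a1 -0.0502, Cox6b2 -0.058, Cox7a2 -0.004, Cox8a -0.033, Ndufa4 -0.022, Ndufb8 -0.026, Epcam -0.0204, Krt8 -0.033, Ndufs1 -0.0703, Cox5a -0.0498, Cox6c -0.11, Cox7c -0.057, Atp5a1 -0.0016, Atp5b -0.033 and COX1 -0.023. With normexp they were Ndufa6 -0.011, Sdha -0.026, Uqcrb -0.029 and Atp5s 0.027, and with the mean of probes Uqcrb was -0.14. Scaled to the array median, ND5 was 0.014. Without 1 array the range spanned 0 for Ndufa6 (-0.058 to 0.11), Sdha (-0.037 to 0.048), Uqcrb (-0.026 to 0.051), Atp5s (-0.20 to 0.019), Atp5sl (-0.047 to 0.12), Cox6b2 (-0.029 to 0.19), Cox8a (-0.021 to 0.24), Ndufs1 (-0.0088 to 0.15), Cox6c (-0.0795 to 0.13), Cox7c (-0.033 to 0.20), ND5 (-0.27 to 0.14) and Ppargc1a (-1.03 to 0.0198). Signal over background limits Cox8b, Cox4i2, Cox6b2 and Atp5s, which lay below the 75th percentile.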
